A study of Mus musculus with 3 samples.

Results

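The genes described here encode the enzymes and regulators of cholesterol and fatty acid synthesis, read in 3 cultured lines of mouse forestomach fibroblasts. A fixed list of 33 gene symbols defined them: 8 enzymes that lead from acetyl-CoA to squalene, 10 that turn squalene into cholesterol, 5 regulators of the SREBP transcription factors, 1 sterol carrier, and 9 enzymes that make, elongate or desaturate fatty acids. Of the 33, 32 were matched to a probe set among 19938 named genes, and all 32 were at or above the median signal of the table, log2 6.63, in at least 1 array, as were 11808 genes in all. Acat2, the cytosolic thiolase that condenses acetyl-CoA, was not matched and is not analysed here.

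The Tgfbr2/Smad4 cKO line carried conditional knockouts of the type II TGF-beta receptor gene and of Smad4, which encodes the common partner of the receptor-activated SMAD proteins, and came from normal forestomach. The Tgfbr2 cKO line carried the receptor knockout alone and was taken from a forestomach squamous cell carcinoma. The wild-type line came from normal forestomach. All 3 were FSP1-positive fibroblasts from mice of mixed C57BL6 and BALBc background and either sex, grown in medium with serum and harvested below confluency at low passage, with 1 Affymetrix Mouse Gene 1.0 ST array per line. The sources used here name neither the recombinase that made the knockouts nor the ages of the mice. With 1 array per line there is no spread between replicates, so every difference below is the gap between 1 array and another, no p-value can be given, and precision is limited by having so few arrays. In each comparison genotype cannot be told apart from the line itself, nor from tissue of origin where the Tgfbr2 cKO line is compared, nor from sex pattern, given below, where the Tgfbr2/Smad4 cKO line is compared.

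Levels are log2 signals, and a difference is the level in the array named first minus that in the array named second. S100a4, which encodes FSP1, had levels of 12.71, 13.16 and 13.18 in the Tgfbr2/Smad4 cKO, Tgfbr2 cKO and wild-type arrays. The median signal was reached by 10 of 10 fibroblast, 3 of 10 epithelial, 4 of 10 leukocyte and 6 of 8 mesothelial markers, beside 11808 of all 19938 genes. In the Tgfbr2/Smad4 cKO array 8 fibroblast markers were higher than wild type and 2 lower, beside 31.1% and 32.2% of all genes. Pdgfra differed by 1.40, Lum by 1.21 and Thy1 by -2.36, so the lines were not alike in these markers. Tgfbr2 had levels of 10.29, 10.25 and 10.25 and Smad4 of 11.04, 11.06 and 11.06 in the same order, on probes along the whole transcript, so these values do not check the deletions. Xist had levels of 9.44, 5.35 and 5.33 and the Y-linked Eif2s3y of 5.01, 10.00 and 10.12, a female pattern in the Tgfbr2/Smad4 cKO array and a male pattern in the others.

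Animal cells make cholesterol from acetyl-CoA through mevalonate, farnesyl diphosphate and squalene, and make fatty acids from the same precursor. Both routes are controlled by the SREBP transcription factors, which are held in the endoplasmic reticulum with their escort SCAP by the INSIG proteins when sterols are plentiful. When sterols run low, the SCAP-SREBP complex moves to the Golgi, where SREBP is cleaved, and the freed part enters the nucleus and binds sterol regulatory elements in the promoters of these genes, usually next to sites for NF-Y and Sp1. Genes of the sterol route are therefore known to move together when cellular sterol changes. In fibroblasts the products serve membranes, lipid signals and the prenyl groups of small GTPases.

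The promoter letters are shown because the sterol enzymes share a regulator, and the 4 printed genes were picked after their values were seen: Hmgcs1, the 1 gene with a match to the sterol element searched, Cyp51 and Hsd17b7, with the lowest differences of the Tgfbr2/Smad4 cKO array from wild type, and Nsdhl, on the higher side. Each window spans 300 bases, 250 before and 50 after the annotated start, taken 5′ to 3′ on the gene's own strand from RefSeq (GRCm38.p6). They are Hmgcs1 at chr13:119690101-119690400 on the plus strand, Cyp51 at chr5:4104648-4104947 and Hsd17b7 at chr1:169969156-169969455 on the minus strand, and Nsdhl at chrX:72918271-72918570 on the plus strand. Capitals mark matches to TCACNCCAC, a sterol regulatory element pattern, and to CCAAT, the core of the NF-Y site, each read on both strands.
Hmgcs1: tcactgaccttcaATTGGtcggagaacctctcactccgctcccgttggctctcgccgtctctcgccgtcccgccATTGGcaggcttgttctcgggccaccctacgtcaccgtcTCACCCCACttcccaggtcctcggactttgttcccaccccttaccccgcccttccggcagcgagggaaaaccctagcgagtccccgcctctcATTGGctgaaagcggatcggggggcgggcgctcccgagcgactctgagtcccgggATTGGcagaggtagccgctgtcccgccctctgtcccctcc
Cyp51: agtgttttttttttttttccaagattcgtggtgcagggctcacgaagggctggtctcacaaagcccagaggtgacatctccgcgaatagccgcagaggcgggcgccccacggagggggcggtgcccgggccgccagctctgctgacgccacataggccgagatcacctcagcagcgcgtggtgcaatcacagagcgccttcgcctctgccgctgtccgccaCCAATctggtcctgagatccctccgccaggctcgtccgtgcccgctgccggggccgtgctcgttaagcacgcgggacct
Hsd17b7: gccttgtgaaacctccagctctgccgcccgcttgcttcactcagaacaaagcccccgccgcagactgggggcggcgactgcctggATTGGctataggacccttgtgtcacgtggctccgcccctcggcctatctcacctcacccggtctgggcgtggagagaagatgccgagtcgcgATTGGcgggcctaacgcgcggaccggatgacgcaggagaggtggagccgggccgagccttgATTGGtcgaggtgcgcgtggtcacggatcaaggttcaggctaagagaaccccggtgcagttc
Nsdhl: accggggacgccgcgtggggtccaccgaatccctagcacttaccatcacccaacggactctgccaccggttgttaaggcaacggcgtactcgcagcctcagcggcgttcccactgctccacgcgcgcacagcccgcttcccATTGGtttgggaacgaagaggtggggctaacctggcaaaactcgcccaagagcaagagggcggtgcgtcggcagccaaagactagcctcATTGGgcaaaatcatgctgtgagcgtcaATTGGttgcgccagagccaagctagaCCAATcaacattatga
The Hmgcs1 window holds TCACCCCAC with its first base at -137 from the start, together with 4 CCAAT cores. Promoters were matched for 25 of the 32 genes, 34 windows in all because some genes have several starts. TCACNCCAC occurred in 1 of these 25 genes, Hmgcs1, against 1.44% of all 27025 genes with a window. CCAAT, on either strand, occurred in 21 of the 25 and in each of the 14 sterol enzyme genes with a window, against 41.1% of all genes. GGGCGG, a Sp1 site core, occurred in 21 of the 25, against 38.2% of all genes, and the E-box CACGTG in 5, against 8.09%. A gene was counted if any of its windows held a match, which favours genes with several windows. The shares of all genes include genes below the median signal, whereas every listed gene reached it, and a share over genes at that signal was not computed. By window, CCAAT was in 22 of the 34 and in 14 of 17 sterol enzyme windows, against 37.4% of all windows. GGGCGG was in 25 of the 34, against 35.7%, and CACGTG in 6, against 7.15%. The patterns were chosen after the values were seen, their matches may overlap, a match is a description of the letters and not a measured binding site, and no match says nothing about the factor.

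In the Tgfbr2 cKO array the sterol enzymes were almost all slightly lower than in wild type. Of the 17 measured enzymes from acetyl-CoA to cholesterol, 14 were lower, 3 were exactly equal and 0 were higher, with a median difference of -0.06. Over the whole list of 32 genes, 23 were lower and 3 higher, where 19.0% of all 11808 genes were lower, 55.1% equal and 25.8% higher, and the median was -0.03 against 0 for all genes. The differences were small: 0 of 32 reached 1.5-fold, a difference of 0.585, which 0.161% of all genes did on the lower and 0.212% on the higher side. Counting only differences of at least 0.05, 12 of 32 were lower and 2 higher, against 9.77% and 13.8% of all genes. Most of the list lay high on the array, and among the 6080 genes at or above the 75th percentile of all values 23.1% were lower, 41.8% equal and 35.1% higher, against 21 lower and 3 higher of the 29 listed genes there.

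The count by sign depends on where 0 is set, because so many genes were exactly equal between these arrays. Under quantile normalization 30 of the 32 were lower and 2 higher, beside 48.0% and 50.8% of all genes, and under cyclic loess normalization 30 and 2, beside 68.1% and 31.9%. Under median centring 22 were lower and 10 higher, beside 18.4% and 81.6%. The count at 0.05 was 12 lower and 2 higher under all 3 of these scalings, beside 9.43% to 10.0% of all genes lower.

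**Figure D1:**
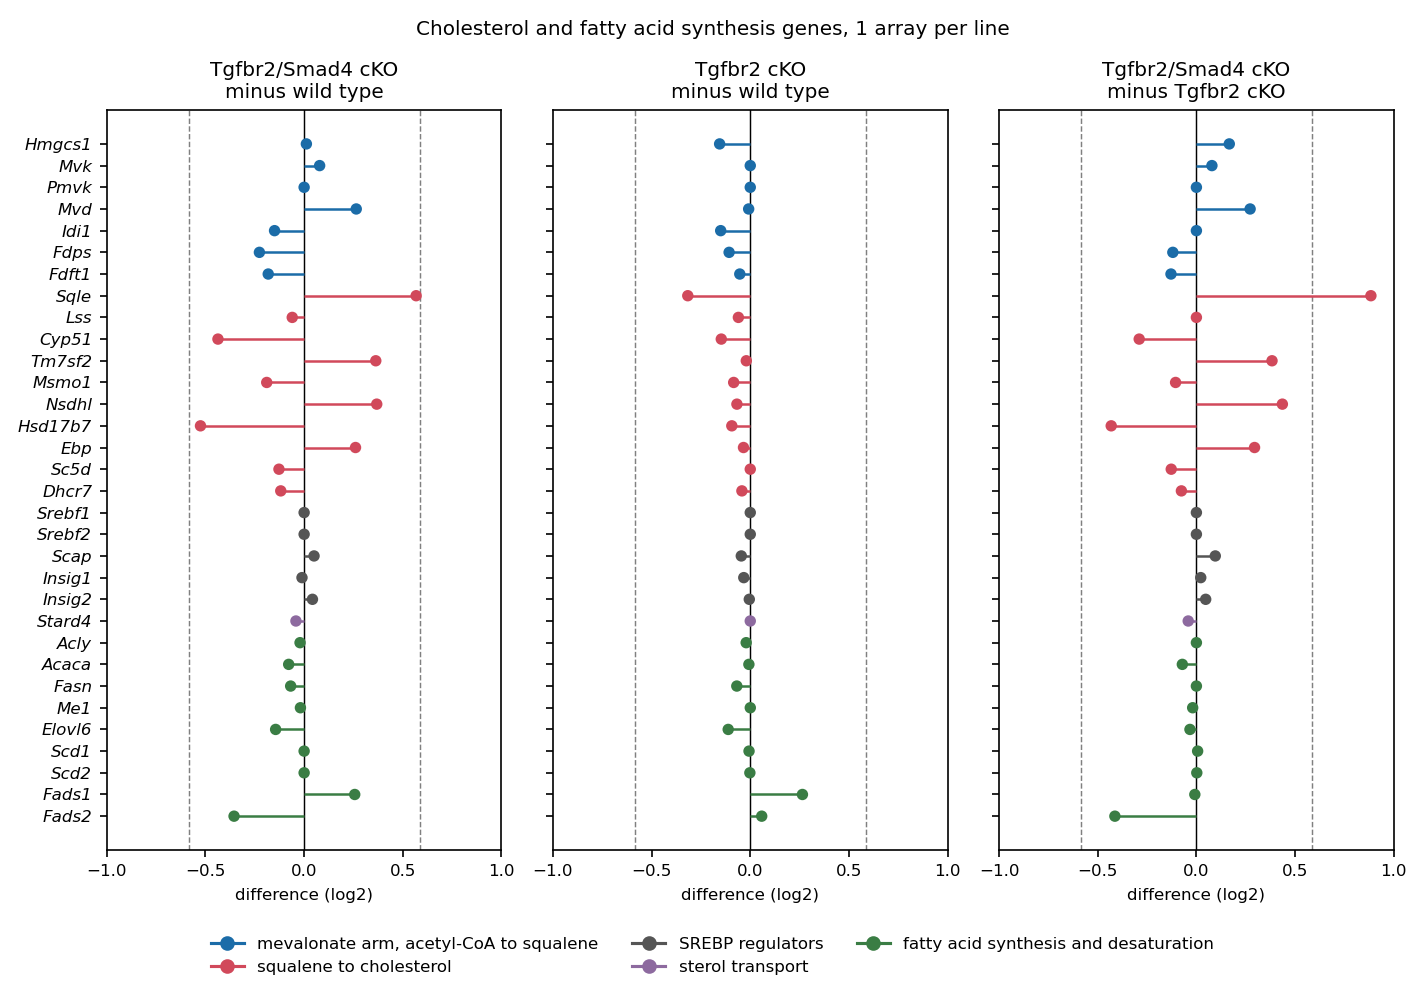
Log2 differences of the 32 genes in pathway order (rows), in 3 comparisons (panels). Points are single-array differences, the colour gives the role, and dashed lines mark 1.5-fold. In the middle panel 14 of 17 sterol enzymes lie left of 0 and 0 lie right of it, while in the left panel 9 lie left and 7 right. Sqle, at 0.88 in the right panel, is the 1 point outside the dashed lines.

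The enzymes before squalene opened the pattern. Hmgcs1, which makes HMG-CoA, had levels of 10.71, 10.55 and 10.70 in the Tgfbr2/Smad4 cKO, Tgfbr2 cKO and wild-type arrays. The Tgfbr2 cKO array was thus the lowest, by 0.16 below wild type, and the other two were nearly level, 0.01 apart. Mvk and Pmvk, the kinases that phosphorylate mevalonate and its product, had 9.34, 9.26 and 9.26 and 8.33, 8.33 and 8.33 in that order, so Pmvk was equal in every array and Mvk was 0.08 higher in the Tgfbr2/Smad4 cKO array than in either other. Mvd, the decarboxylase that follows them, had 9.45, 9.17 and 9.18, higher in the Tgfbr2/Smad4 cKO array by 0.26 than in wild type.

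The steps that build farnesyl diphosphate and squalene were lower in both knockout arrays. Idi1, the isomerase of isopentenyl diphosphate, had levels of 9.71 and 9.71 in the Tgfbr2/Smad4 cKO and Tgfbr2 cKO arrays, against 9.86 in wild type. Its 2 probe sets gave -0.17 and -0.13 for both differences from wild type. Fdps, farnesyl diphosphate synthase, had 11.18 and 11.30, against 11.41 in wild type, differences of -0.23 and -0.11. Fdft1, squalene synthase, had 10.19 and 10.32, against 10.38 in wild type, and its 2 probe sets disagreed: 1 was at -0.36 in the Tgfbr2/Smad4 cKO array and -0.11 in the Tgfbr2 cKO array relative to wild type, and the other within 0.001 of it in both arrays.

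After squalene, 4 of the 10 enzymes were higher and 6 lower in the Tgfbr2/Smad4 cKO array than in wild type. Sqle, squalene epoxidase and a rate-limiting step of the route, had a level of 11.29 in the Tgfbr2/Smad4 cKO array, 10.40 in the Tgfbr2 cKO array and 10.72 in wild type. It was thus highest in the first of these and lowest in the Tgfbr2 cKO array. The Tgfbr2/Smad4 cKO array differed from wild type by 0.57, which is 1.48-fold and just short of 1.5-fold, and the Tgfbr2 cKO array by -0.32. The knockout arrays differed by 0.88, or 1.85-fold, the one difference among the 32 genes past 1.5-fold in any comparison. Under quantile normalization the difference of the Tgfbr2/Smad4 cKO array from wild type was 0.59, past 1.5-fold.

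Of the enzymes that follow, 3 were also higher in the Tgfbr2/Smad4 cKO array. Nsdhl, the dehydrogenase that removes carbon at position C4 of the sterol ring, had levels of 10.59 in the Tgfbr2/Smad4 cKO array, 10.15 in the Tgfbr2 cKO array and 10.22 in wild type. Tm7sf2, a sterol reductase, had 8.99, 8.61 and 8.63, and Ebp, the sterol isomerase, had 10.23, 9.93 and 9.97 in the same order. The differences from wild type were 0.37, 0.36 and 0.26, and the Tgfbr2 cKO array was the lowest of the 3 for each of these genes, by 0.07, 0.02 and 0.03 below wild type. Nsdhl and Ebp are X-linked, and the Tgfbr2/Smad4 cKO array had the female pattern of Xist. Of 343 X-linked genes at or above the median signal, 109 (31.8%) were higher in that array than in wild type, against 31.1% of all genes. At least 1.2-fold, 38 of the 343 were higher and 53 lower, against 9.18% and 13.2% of all genes. The part of sex in the differences of Nsdhl and Ebp was not tested.

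The other 6 enzymes after squalene were lower in the Tgfbr2/Smad4 cKO array. Hsd17b7, the ketoreductase that acts with Nsdhl in the same demethylation, had a level of 10.16 in the Tgfbr2/Smad4 cKO array, 10.59 in the Tgfbr2 cKO array and 10.68 in wild type, so its difference from wild type was -0.53 where that of Nsdhl was 0.37. Cyp51, lanosterol demethylase, had 9.42, 9.71 and 9.86, a difference of -0.44 from wild type and of -0.29 from the Tgfbr2 cKO array. Msmo1, the methylsterol oxidase that precedes Nsdhl, had 12.37, 12.47 and 12.55. Lss, lanosterol synthase, had 8.89, 8.89 and 8.95, equal in both knockout arrays. Sc5d, a sterol desaturase, and Dhcr7, a reductase late in the route, were lower than wild type by 0.13 and 0.12, with levels of 11.14, 11.27 and 11.27 and of 8.51, 8.59 and 8.63. The 10 enzymes thus lay between -0.53 and 0.57 from wild type in the Tgfbr2/Smad4 cKO array, and between -0.32 and 0 in the Tgfbr2 cKO array. Differences from wild type were also more spread over all genes in the Tgfbr2/Smad4 cKO array, with an SD of 0.390, than in the Tgfbr2 cKO array, with an SD of 0.0951.

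**Figure D2:**
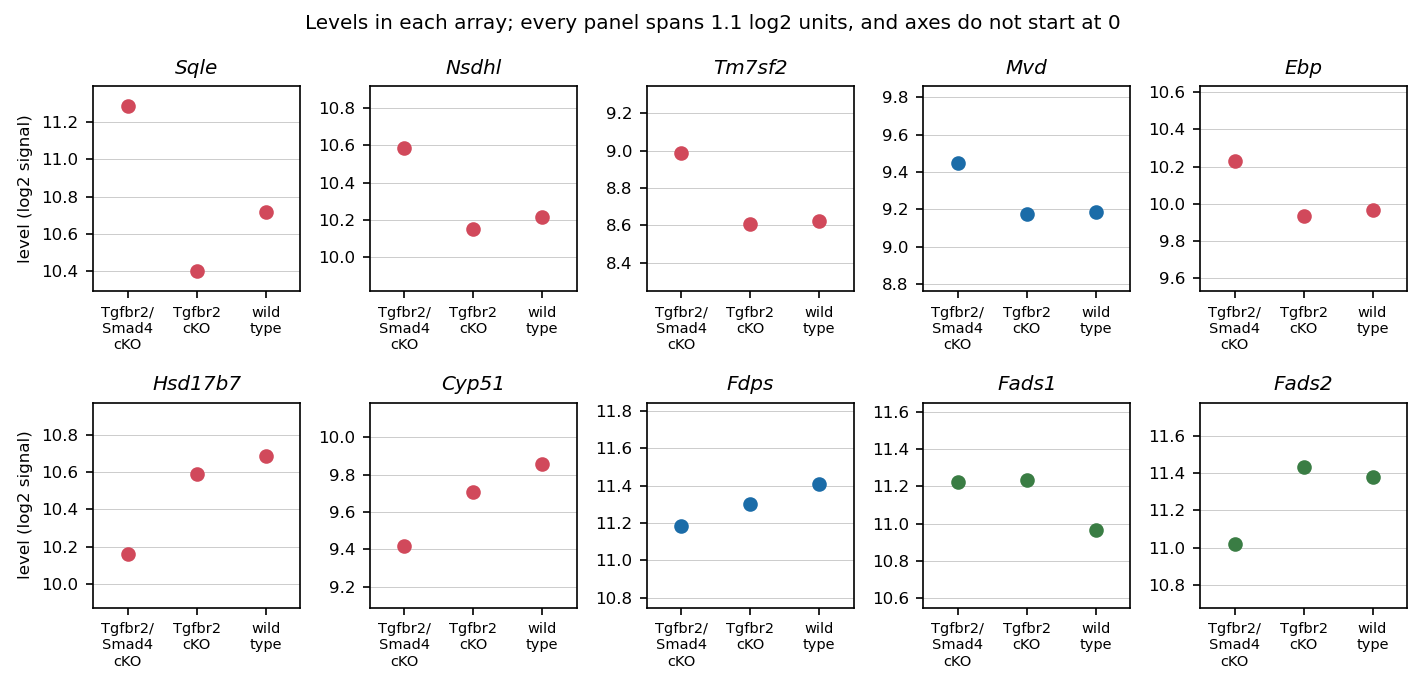
Log2 level of 10 genes in each array, with 1 point per array; colours give the role as in the plot of differences and every vertical axis spans the same length. Sqle, Nsdhl, Tm7sf2, Mvd and Ebp are highest in the Tgfbr2/Smad4 cKO array, Hsd17b7, Cyp51, Fdps and Fads2 are lowest there, and Fads1 is lowest in wild type.

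Compared as a whole, the Tgfbr2/Smad4 cKO array showed no common direction relative to wild type. Of the 32 genes, 17 were lower and 10 higher, where 32.2% of all genes were lower, 36.7% equal and 31.1% higher, and the median was -0.01. Among genes at or above the 75th percentile the shares were 40.0%, 24.0% and 36.0%, with 15 of the 29 listed genes there lower and 10 higher. At least 1.5-fold, 0 of 32 were lower and 0 higher, against 5.09% and 3.35% of all genes. At least 1.2-fold, a difference of 0.263, 3 were lower (Hsd17b7, Cyp51 and Fads2) and 4 higher (Sqle, Nsdhl, Tm7sf2 and Mvd), against 13.2% and 9.18%. At least 0.05, 13 were lower and 8 higher, against 27.1% and 24.1%. Quantile normalization gave 14 lower and 18 higher, beside 32.1% and 67.7% of all genes, while no gene that differed by 0.05 or more changed sign under it. Median centring gave 22 and 10, beside 69.1% and 30.9%, and cyclic loess 18 and 14, beside 58.4% and 41.6%.

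Set against the Tgfbr2 cKO array, the Tgfbr2/Smad4 cKO array was lower for 13 of the 32 and higher for 12, beside 33.7% lower, 36.1% equal and 30.2% higher of all genes, with a median of 0. Among genes at or above the 75th percentile the shares were 41.9%, 23.6% and 34.5%, with 11 and 12 of 29. Sqle alone was at least 1.5-fold higher, where 3.40% of all genes were, and 0 were at least 1.5-fold lower, where 5.61% were. None reached 2-fold, as 1.32% of all genes did on the higher side. At least 1.2-fold, 3 were lower (Hsd17b7, Cyp51 and Fads2) and 5 higher (Sqle, Nsdhl, Tm7sf2, Ebp and Mvd), against 14.0% and 9.04%, and at least 0.05, 9 were lower and 8 higher, against 28.2% and 23.4%. This comparison shares an array with each of the others, so the 3 sets of differences are not independent. Median centring gave 21 lower and 11 higher, beside 70.5% and 29.5% of all genes, quantile normalization 10 and 22, beside 35.6% and 64.4%, and cyclic loess 14 and 18, beside 55.2% and 44.8%.

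The order of the 3 arrays can be read without choosing a reference, but it counts gaps of any size and was not recounted under other scalings. The wild-type array was the single highest for 13 of the 32 genes, against 9.58% of all genes, and the single lowest for 1, Fads1, against 11.0%. The Tgfbr2 cKO array was the single lowest for 11, against 9.77%, and the single highest for 3, against 15.6%. The Tgfbr2/Smad4 cKO array was the single lowest for 12 and the single highest for 9, against 30.6% and 28.3%. Of the 32, 3 were equal in all arrays, against 32.7% of all genes.

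**Figure D3:**
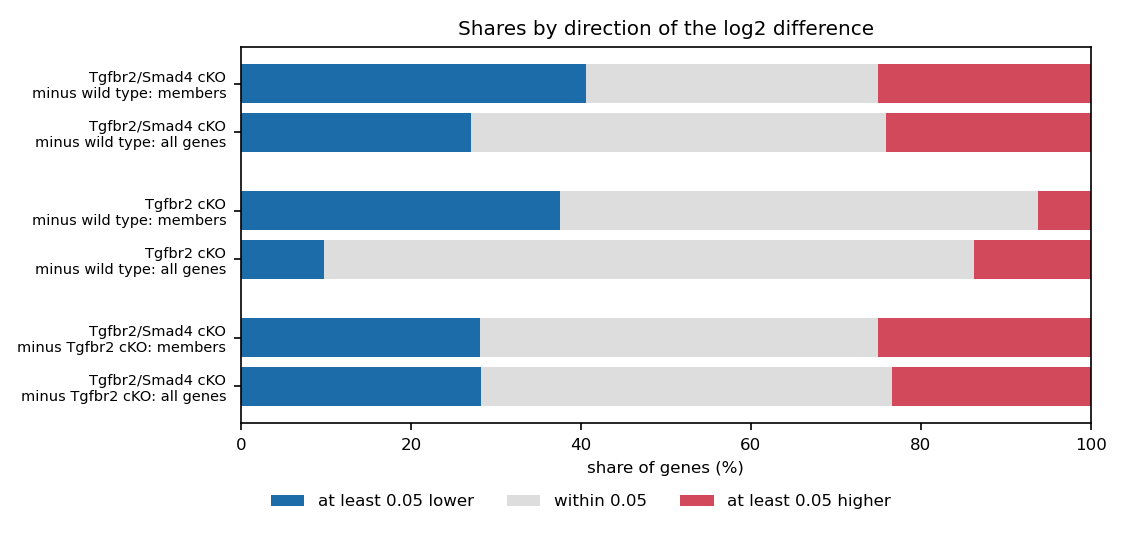
Shares of the 32 genes (members) and of all 11808 genes (all genes) that were at least 0.05 lower, within 0.05, or at least 0.05 higher on the log2 scale, per comparison. For the Tgfbr2 cKO array against wild type, 12 of 32 lie lower and 2 higher, against 9.77% and 13.8% of all genes, while the higher shares in the other comparisons, 8 of 32 in each, lie beside 24.1% and 23.4%.

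The regulators of the route had close values in the 3 arrays. Srebf1 and Srebf2, the SREBP genes, had levels of 9.49 and 10.32, exactly equal in all 3 arrays. Such equality was common, at 40.4% of all probe sets and 32.7% of all genes at or above the median signal, and whether it comes from how the deposited values were made was not tested, so it does not show that these transcripts were unchanged. Scap, the escort, had 9.83, 9.73 and 9.78 in the Tgfbr2/Smad4 cKO, Tgfbr2 cKO and wild-type arrays. Insig1, which retains the complex and is itself an SREBP target, had 10.76, 10.74 and 10.78, and Insig2 had 10.47, 10.42 and 10.43. No member of this group of 5 differed by more than 0.10 between any pair of arrays. Small differences were common, so close values are not particular to these 5. Of all genes, 27.1% were at least 0.05 lower and 24.1% at least 0.05 higher in the Tgfbr2/Smad4 cKO array than in wild type. For the Tgfbr2 cKO array the shares were 9.77% and 13.8%. Stard4, a carrier of cholesterol between membranes, had 9.58, 9.62 and 9.62. These are transcript levels, and cleavage of SREBP, the regulated step, was not measured.

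Among the fatty acid genes, Fads1, Fads2 and Elovl6 had the widest ranges over the arrays. Of the 9 genes, 6 were lower and 1 higher in the Tgfbr2/Smad4 cKO array than in wild type, beside 32.2% and 31.1% of all genes, and 6 lower and 3 higher in the Tgfbr2 cKO array, beside 19.0% and 25.8%, with medians of -0.02 and -0.01. Acly, which makes cytosolic acetyl-CoA, had levels of 10.74 and 10.74 in the Tgfbr2/Smad4 cKO and Tgfbr2 cKO arrays, against 10.76 in wild type. Fasn, fatty acid synthase, had 10.41 and 10.41, against 10.48. Acaca, acetyl-CoA carboxylase, had 8.58 and 8.65, against 8.66, and its 2 probe sets lay at -0.13 and -0.03 from wild type in the Tgfbr2/Smad4 cKO array. Me1, the malic enzyme that supplies NADPH, had 11.68 and 11.70, against 11.70. Elovl6, an elongase of saturated fatty acids, was lower in both knockout arrays, with 9.36 and 9.39, against 9.51 in wild type. Scd1 and Scd2, the stearoyl-CoA desaturases, had 10.83 and 12.30 in both the Tgfbr2/Smad4 cKO and wild-type arrays, and in the Tgfbr2 cKO array were 0.006 and 0.002 lower.

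Fads1 and Fads2, neighbouring genes on chromosome 19 that encode the front-end desaturases of polyunsaturated fatty acids, parted. Fads1 had levels of 11.22 and 11.23 in the Tgfbr2/Smad4 cKO and Tgfbr2 cKO arrays, against 10.97 in wild type, so both knockout arrays were higher, by 0.26 and 0.26. Fads2 had 11.02 in the Tgfbr2/Smad4 cKO array, 11.43 in the Tgfbr2 cKO array and 11.38 in wild type, lower in the Tgfbr2/Smad4 cKO array alone, by 0.36 below wild type and 0.41 below the Tgfbr2 cKO array. Fads1 was the 1 gene of the 32 at least 1.2-fold higher in the Tgfbr2 cKO array than in wild type, where 1.55% of all genes were, and Sqle the 1 at least 1.2-fold lower, where 1.36% were.

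Other genes of sterol and lipid synthesis did not share the tilt of the Tgfbr2 cKO array. Of 25 listed, 18 had a value and 17 reached the median signal. In that array 2 of the 17 were lower than wild type, 8 equal and 7 higher, beside 19.0%, 55.1% and 25.8% of all genes. Fabp5, a fatty acid binding protein gene, at 0.18, and Acsl4, an acyl-CoA synthetase gene, at 0.08, had the largest differences. In the Tgfbr2/Smad4 cKO array 6 of the 17 were lower than wild type, 7 equal and 4 higher, beside 32.2%, 36.7% and 31.1% of all genes. Lpin1, a phosphatidate phosphatase gene and known SREBP target, had a level of 8.97 there, against 8.23 in the Tgfbr2 cKO array and 8.30 in wild type, at least 1.5-fold higher than either. Acsl4 had 9.61, 10.30 and 10.22 in the same order, at least 1.5-fold lower than either.

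Genes for SREBP cleavage and for degradation in the endoplasmic reticulum had 7 of 10 listed members measured and 0 that differed 1.5-fold. Of all genes, 5.09% were at least 1.5-fold lower and 3.35% higher in the Tgfbr2/Smad4 cKO array than in wild type. The shares were 0.161% and 0.212% in the Tgfbr2 cKO array, and 5.61% and 3.40% between the knockout arrays, so 0 of 7 is near the background. The largest differences from wild type were -0.29 for Erlin1 and 0.19 for the protease gene Mbtps1 in the Tgfbr2/Smad4 cKO array, and 0.10 for Faf2 and -0.09 for the ubiquitin ligase gene Rnf139 in the Tgfbr2 cKO array. Between the knockout arrays they were -0.36 for Erlin1 and 0.27 for Rnf139. Among 8 measured genes of cholesterol efflux, storage and the LXR response, Ch25h, which makes an oxysterol that holds back SREBP processing, differed most. Its level was 8.63 in the Tgfbr2/Smad4 cKO array, 10.41 in the Tgfbr2 cKO array and 9.89 in wild type, or -1.26 and 0.52 from wild type. The Ch25h level was therefore highest in the Tgfbr2 cKO array and lowest in the Tgfbr2/Smad4 cKO array, where 7 of the 17 sterol enzymes had their single highest and 7 their single lowest level. The part of Ch25h in the sterol enzyme values was not tested. Abca1, the cholesterol efflux transporter gene, had 8.67, 8.19 and 8.24 in the same order of arrays, higher in the Tgfbr2/Smad4 cKO array by 0.43 than in wild type.

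Proliferation genes and markers of other cell types also differed between these arrays. Relative to wild type, 19 of 19 measured proliferation genes had lower values in the Tgfbr2/Smad4 cKO array, with a median of -1.82, and 17 in the Tgfbr2 cKO array, with a median of -0.16. Of all genes, 32.2% and 19.0% were lower in these arrays. The summed signal of the proliferation genes was log2 12.24 in the Tgfbr2/Smad4 cKO array, 13.61 in the Tgfbr2 cKO array and 13.81 in wild type. Mesothelial markers, 6 of 8 of them at the median signal, summed to 9.81, 10.82 and 11.23 in that order, and adipocyte markers, 5 of 9 of them, to 9.85, 9.72 and 9.78. Leukocyte markers summed to 9.79, 10.54 and 10.12 in the same order, highest in the Tgfbr2 cKO array. There the macrophage genes Lyz2 and Cd68 differed from wild type by 0.82 and 0.50. Csf1r and Cd14, the other leukocyte markers at the median signal, were equal in all 3 arrays. Epithelial markers summed to 9.56, 10.30 and 10.18 in that order. Of those at the median signal, Krt19, also on the mesothelial list, had levels of 6.93, 9.25 and 8.82. Krt8 and Krt18 went the other way in the Tgfbr2 cKO array, at -0.28 and -0.30 from wild type. Beside these, the 17 sterol enzymes had 9 lower, 1 equal and 7 higher than wild type in the Tgfbr2/Smad4 cKO array and 14 lower, 3 equal and 0 higher in the Tgfbr2 cKO array, with a median of -0.06 in each. The part of proliferation or of other cells in the small differences was not tested, and in bulk RNA fewer cells of a type and less RNA per cell cannot be told apart.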

How the data were processed

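The arrays were Affymetrix Mouse Gene 1.0 ST, per the labels' protocols. The deposited values, 1 for each of 35556 probe sets in each of 3 arrays, were read as log2 signals; the unit was taken from the values, which ran from 2.82 to 15.6, and no label states it. How the signals were background-corrected, normalized or summarised is not given in the sources used here. Array medians differed by at most 0.00413, so values were used as deposited.

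Probe sets with 1 gene symbol in the platform annotation (21789 of 23410 listed) were averaged per gene, with symbols updated through the gene identifier, giving 19938 genes. A gene was kept if its highest value reached the median of all values, 6.63, as 11808 did. Values were called equal within 1e-09. The size rule was 1.5-fold, with 1.2-fold and 2-fold as alternatives. The members, lists and rules were chosen with earlier results of these data known, and a count at 0.05 was added after seeing them. Every member was to be named, and of other pathway lists those 1.5-fold different or otherwise the 2 with the largest difference. Promoter windows came from RefSeq (GRCm38.p6). The counting step was tested on simulated data. Tools were Python 3.11.15, numpy 2.4.6, pandas 2.3.3, matplotlib 3.10.9, R 4.3.3 and limma 3.58.1 (quantile and cyclic loess normalization).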

Additional observations from a re-analysis of the deposited data

How the results depend on the processing

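No paired analysis was possible because each group has 1 array. Over 747 recomputed member differences under 8 alternatives, 6 moved by over 0.05 and 0 of those of at least 0.05 changed sign. Changing the level filter or keeping only genes with 1 probe set cannot move a retained member, so the largest move there was 0.000 by construction. Median centring shifts every gene alike, here by at most 0.004. The totals therefore include many recomputations that could not differ, and say little about robustness. Sign counts moved by over 1.5 times with the scaling, since many values were exactly equal: for Tgfbr2/Smad4 cKO minus wild type, 18 were higher in place of 10 under quantile normalization, for Tgfbr2 cKO minus wild type, 10 in place of 3 under median centring, and for Tgfbr2/Smad4 cKO minus Tgfbr2 cKO, 21 lower in place of 13 under median centring and 22 higher in place of 12 under quantile normalization. With differences of at least 0.05, 12 in place of 23 were lower for Tgfbr2 cKO minus wild type. Members at least 1.5-fold higher for Tgfbr2/Smad4 cKO minus wild type were 1 in place of 0 under quantile normalization. At 1.2-fold, 3 were lower and 4 higher in that comparison, 1 and 1 for Tgfbr2 cKO minus wild type, and 3 and 5 for Tgfbr2/Smad4 cKO minus Tgfbr2 cKO. At 2-fold, 0 were higher in the last comparison in place of 1. The members' signals lay well above the median of the table, 8.33 at the lowest, so low signal did not remove any of them; the number of arrays is the limit.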
